A study of Mus musculus with 9 samples.

Results

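The genes described are 8 components through which cells receive bone morphogenetic protein (BMP) signals. They are the type I receptors Bmpr1a, Bmpr1b and Acvr1, the type II receptor Bmpr2, the receptor-regulated transducers Smad1, Smad5 and Smad9, and the common partner Smad4. They were taken by gene symbol from the deposited RNA-seq tables, where each symbol names 1 row, so 8 of 56691 genes were followed across 9 libraries. All 8 passed the filter on low counts that left 16903 genes for testing.

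BMP ligands bind a receptor complex in which the type II receptor phosphorylates the type I receptor. The type I receptor then phosphorylates SMAD1, SMAD5 and SMAD9, which join SMAD4, enter the nucleus and bind target genes such as those of the Id family. In the mouse embryo BMP signals are known to start the specification of primordial germ cells (PGCs), and BMP ligands are commonly used to make PGC-like cells (PGCLCs) in culture.

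The study asked what overexpression (OE) of NRF1, a transcription factor known for activating nuclear genes of mitochondrial respiration, changes while pluripotent stem cells (PSCs) form PGCLCs. Mouse BVSC PSCs, a line that carries fluorescent reporters for Blimp1 (BV) and Stella (SC), were grown as embryoid bodies in medium with serum. A doxycycline (DOX) inducible p20 vector with Nrf1, or the empty p20 vector (Ctrl), was induced with 1.5 μg/mL DOX from day 2 to day 5, so the Ctrl cells received DOX as well. Poly(A) RNA was sequenced from BV+ and BV- cells separated by flow cytometry. The groups were BV+ NRF1 OE (n = 2), BV+ Ctrl (n = 2), BV- NRF1 OE (n = 3) and BV- Ctrl (n = 2). The sorted populations rest on the Blimp1 reporter alone, and all libraries come from 1 PSC line. The labels give replicate numbers without saying whether they mark separate cultures, so p-values measure the spread between these libraries.

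The libraries held between 13702162 and 19625460 counts. Prdm1, the gene of the Blimp1 reporter, was not called different between BV+ and BV- cells, with a log2 fold change of 0.054 (adjusted p = 0.9996) with Ctrl and 0.00074 (adjusted p = 0.998) with NRF1 OE by edgeR's quasi-likelihood test. The summed FPKM of 8 germ cell markers, none of them at 0 in every library, lay between 127 and 131 in BV+ Ctrl, 153 in both BV- Ctrl libraries, between 162 and 170.2 in BV+ NRF1 OE, and between 204 and 258 in BV- NRF1 OE. Dppa3 alone gave 69.12 and 65.16 FPKM of these sums in BV+ Ctrl and 89.48 and 91.15 in BV- Ctrl. Itgb3 went the other way, at 4.41 and 4.05 FPKM in BV+ Ctrl and 2.6 and 2.52 in BV- Ctrl. With Ctrl, 0 of the 8 markers were called between BV+ and BV- cells, against 1.12% of all genes. The sums thus did not set BV+ above BV- cells, and the populations are called here by their reporter. The summed FPKM of 6 mesenchyme markers was between 167 and 293 in BV+ NRF1 OE, 47.6 and 52.0 in BV+ Ctrl, 28.9 and 43.0 in BV- NRF1 OE, and 19.0 and 22.2 in BV- Ctrl. Most of this sum was Acta2 in every group, at 227.81 and 123.32 FPKM in BV+ NRF1 OE. The labels give embryoid body as tissue and PSCs as cell type, and 7 pluripotency markers summed to between 910.3 and 1269 FPKM in every library, beside 3.22 to 8.61 for mesoderm, 1.63 to 3.89 for endoderm and 29.0 to 42.5 for neuroectoderm. Nrf1 itself was at 95.7 and 99.4 CPM in BV+ NRF1 OE against 91.1 and 90.4 CPM in BV+ Ctrl (log2 fold change 0.10, adjusted p = 0.489), and at 119 to 126 CPM in BV- NRF1 OE against 99.1 and 105 CPM in BV- Ctrl (log2 fold change 0.26, adjusted p = 0.0718). Neither of these differences passed the threshold. With offsets for the GC content and length of transcripts, described with the comparisons, Nrf1 was called higher in BV- cells (log2 fold change 0.53, adjusted p = 0.0329) and not in BV+ cells (0.28, adjusted p = 0.0971). Libraries also differed in how abundance followed transcript GC content, and the sign of this relation split by vector. The offsets can therefore take out an effect of NRF1 OE together with a technical trend. The Spearman correlation across 16662 genes between GC content and the log2 abundance relative to each gene's mean was between -0.505 and -0.398 in the 4 Ctrl libraries, 0.282 and 0.0237 in BV+ NRF1 OE, and 0.0294, 0.621 and 0.468 in BV- NRF1 OE.

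The bases upstream of 4 members are shown because NRF1 is known to bind the palindrome CGCATGCG, and because these genes moved differently in the comparisons. They are the 250 bases before a RefSeq start site on GRCm38.p6, written 5′ to 3′ on the strand of the gene, with the palindrome in capitals. The windows are Smad5 at chr13:56702760-56703009 on the plus strand, Bmpr1a at chr14:34502547-34502796 on the minus strand, Bmpr2 at chr1:59764029-59764278 on the plus strand, and Smad1 at chr8:79399429-79399678 on the minus strand.
Smad5: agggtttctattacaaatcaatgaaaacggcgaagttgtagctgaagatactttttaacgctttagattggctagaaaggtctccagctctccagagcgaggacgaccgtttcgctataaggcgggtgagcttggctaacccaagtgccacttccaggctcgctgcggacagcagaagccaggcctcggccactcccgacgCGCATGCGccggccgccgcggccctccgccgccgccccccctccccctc
Bmpr1a: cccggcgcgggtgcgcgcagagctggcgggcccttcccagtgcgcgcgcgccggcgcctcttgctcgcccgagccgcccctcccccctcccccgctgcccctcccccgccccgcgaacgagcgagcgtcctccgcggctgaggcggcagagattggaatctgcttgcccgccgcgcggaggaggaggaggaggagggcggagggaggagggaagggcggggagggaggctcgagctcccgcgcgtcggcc
Bmpr2: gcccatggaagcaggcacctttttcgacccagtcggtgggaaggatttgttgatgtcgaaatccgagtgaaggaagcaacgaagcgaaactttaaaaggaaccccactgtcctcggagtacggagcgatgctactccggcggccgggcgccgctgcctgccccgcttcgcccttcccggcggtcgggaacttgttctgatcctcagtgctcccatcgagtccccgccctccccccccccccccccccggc
Smad1: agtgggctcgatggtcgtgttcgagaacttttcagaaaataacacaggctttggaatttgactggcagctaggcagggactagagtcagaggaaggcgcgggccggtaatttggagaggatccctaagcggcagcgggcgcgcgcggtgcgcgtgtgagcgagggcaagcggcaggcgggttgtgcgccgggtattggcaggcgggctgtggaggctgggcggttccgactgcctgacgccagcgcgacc
The search covered windows of 300 bases, from 250 before to 50 after each start site, and the palindrome reads the same on both strands. It was found in 615 of 32851 windows (1.87%) and in 559 of 27025 genes (2.07%). The table holds 11 windows of 7 members, and Smad5 was the 1 member with a match. In Smad5 the match began 49 bases before the start site of the window shown and lay in 2 of its 3 windows. The windows of Bmpr1a, Bmpr2 and Smad1 lacked these 8 letters. The full 300 bases of the windows searched for Smad5, Bmpr1a, Bmpr2 and Smad1, which run 50 bases past the stretches shown, held 31, 48, 23 and 31 CpG dinucleotides, against a median of 7 over all windows.

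Levels were compared between members per length, as the deposited FPKM, in which fragments are scaled by gene length and library size. In BV+ Ctrl cells the order ran from Smad4 at 37.4 and 37.1 FPKM through Bmpr1a at 18.1 and 18.5, Smad5 at 8.92 and 9.17, Smad1 at 6.24 and 5.60, Acvr1 at 3.76 and 3.72, and Bmpr2 at 2.62 and 2.88 to Smad9 at 0.62 and 0.66 and Bmpr1b at 0.29 and 0.32. No neighbours in this order overlapped between libraries. The order was the same in BV+ NRF1 OE and in BV- Ctrl cells, again with no overlap of neighbours. In BV- NRF1 OE cells Smad1 (mean 5.43 FPKM, SD 0.422, n = 3) stood beside Smad5 (mean 5.27 FPKM, SD 0.794, n = 3). These 2 genes did not differ beyond their spread there, and neither did Smad9, between 0.41 and 0.47 FPKM, and Bmpr1b, between 0.16 and 0.42 FPKM.

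**Figure D1:**
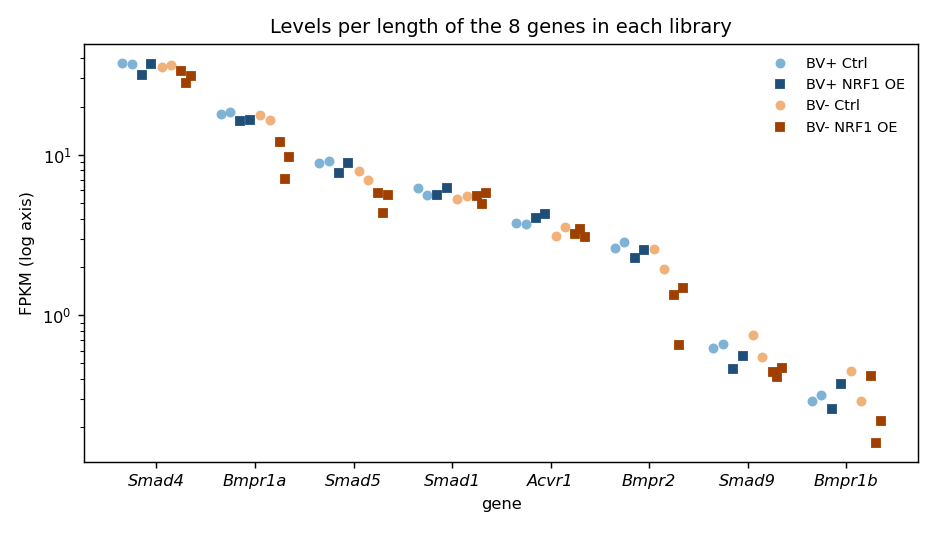
Deposited FPKM of the 8 genes (log axis) in each of the 9 libraries, with circles for Ctrl and squares for NRF1 OE, blue for BV+ and orange or brown for BV-. Smad4 lies at the top in every library and Smad9 and Bmpr1b lie below 1 FPKM, and Smad1 and Smad5 meet in the 3 BV- NRF1 OE libraries.

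Within each class 1 or 2 genes held most of the transcripts. Bmpr1a made up between 66.3% and 83.2% of the summed FPKM of the 3 type I receptors, and Bmpr1b at most 2.67%. The ratio of Bmpr1a to Acvr1 in FPKM was 4.80 and 4.97 in BV+ Ctrl, 4.07 and 3.85 in BV+ NRF1 OE, and 5.68 and 4.63 in BV- Ctrl. It was lower, at 3.78, 2.06 and 3.17, in each of the 3 BV- NRF1 OE libraries. Among the receptor-regulated SMADs, the ratio of Smad5 to Smad1 was 1.43 and 1.64 in BV+ Ctrl, 1.38 and 1.42 in BV+ NRF1 OE, and 1.48 and 1.26 in BV- Ctrl. In BV- NRF1 OE the ratio was 1.05, 0.879 and 0.974, so these libraries stood below the other 6. Smad9 contributed between 3.34% and 5.36% of the class. Ratios and shares were described without a test and without correction for GC content. Trends over GC content and length are described with the comparisons. Between BV- NRF1 OE and BV- Ctrl these trends were -0.44 for Smad5 and 0.12 for Smad1 (log2). They were -0.55 for Bmpr1a and -0.021 for Acvr1. With offsets for these trends the log2 fold changes were -0.026 for Smad5, -0.077 for Smad1, -0.27 for Bmpr1a and 0.019 for Acvr1. The part of these trends in the ratios was not tested.

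**Figure D2:**
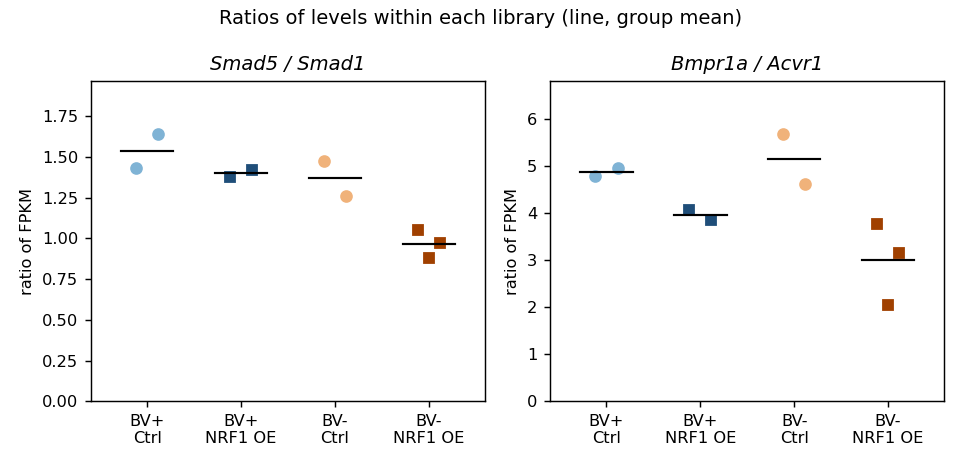
Ratio of deposited FPKM of Smad5 to Smad1 (left) and of Bmpr1a to Acvr1 (right) in each library by group, with the group mean as a line. The 3 BV- NRF1 OE libraries lie below the 6 others in both panels, between 0.879 and 1.05 on the left and between 2.06 and 3.78 on the right.

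Among the type I receptors, Bmpr1a (ENSMUSG00000021796), a receptor for BMP2 and BMP4, was at 105 and 105 CPM (counts scaled to library size with TMM factors) in BV+ NRF1 OE, 112 and 115 CPM in BV+ Ctrl, 111 and 104 CPM in BV- Ctrl, and 78.3, 45.5 and 63.6 CPM in BV- NRF1 OE. The 3 BV- NRF1 OE libraries were lower than all others, and the other 6 lay close together. Acvr1 (ENSMUSG00000026836), also known as ALK2, was at 19.6 and 20.7 CPM in BV+ NRF1 OE, 17.8 and 17.5 CPM in BV+ Ctrl, 14.8 and 17.0 CPM in BV- Ctrl, and 15.8, 16.8 and 15.3 CPM in BV- NRF1 OE. Both BV+ NRF1 OE libraries were above the 7 others, and the BV- groups overlapped. Bmpr1b (ENSMUSG00000052430), a type I receptor known from cartilage and ovary, had between 13 and 42 reads per library, or between 0.958 and 2.65 CPM, and its groups overlapped throughout.

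Bmpr2 (ENSMUSG00000067336), the type II receptor dedicated to BMPs, varied most of the 8 members between libraries. It was at 41.2 and 45.7 CPM in BV+ NRF1 OE, 46.1 and 50.6 CPM in BV+ Ctrl, 46.4 and 34.8 CPM in BV- Ctrl, and 24.5, 11.7 and 27.3 CPM in BV- NRF1 OE. The BV- NRF1 OE libraries were again the 3 lowest, and the highest library of all was 4.32 times the lowest.

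Smad5 (ENSMUSG00000021540) was at 57.9 and 65.5 CPM in BV+ NRF1 OE, 64.7 and 66.4 CPM in BV+ Ctrl, 58.0 and 51.6 CPM in BV- Ctrl, and 44.0, 32.6 and 43.2 CPM in BV- NRF1 OE, so these 3 libraries were lowest here too. Smad1 (ENSMUSG00000031681), its close relative with the same place in the pathway, was at 35.4 and 39.0 CPM in BV+ NRF1 OE, 38.2 and 34.2 CPM in BV+ Ctrl, 33.1 and 34.6 CPM in BV- Ctrl, and 35.4, 31.4 and 37.4 CPM in BV- NRF1 OE. All 4 groups of Smad1 overlapped except BV+ NRF1 OE and BV- Ctrl, and its highest library was 1.24 times its lowest. Smad9 (ENSMUSG00000027796), the scarce member of the class, had between 30 and 66 reads per library and was at 3.28 and 3.46 CPM in BV+ Ctrl, 2.47 and 2.99 CPM in BV+ NRF1 OE, 3.97 and 2.94 CPM in BV- Ctrl, and 2.41, 2.21 and 2.61 CPM in BV- NRF1 OE. Its NRF1 OE libraries lay below the Ctrl libraries in each population.

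Smad4 (ENSMUSG00000024515), the partner shared with the TGF-β and activin branch, was at 118 and 136 CPM in BV+ NRF1 OE, 136 and 134 CPM in BV+ Ctrl, 129.7 and 135 CPM in BV- Ctrl, and 125, 106 and 119 CPM in BV- NRF1 OE. Its BV+ groups overlapped, the 3 BV- NRF1 OE libraries lay below both BV- Ctrl libraries, and the highest library was 1.28 times the lowest. For 7 of the 8 members, all but Acvr1, the lowest library was replicate 2 of BV- NRF1 OE. This library also had the fewest counts and the correlation of 0.621 with GC content.

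**Figure D3:**
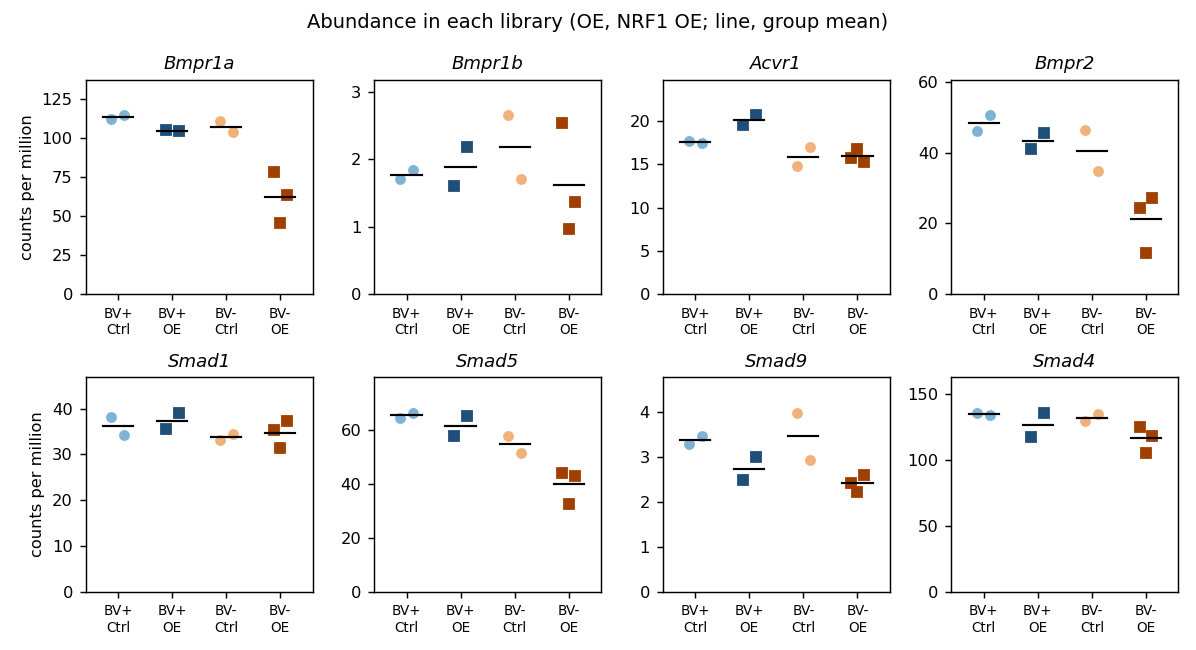
TMM-scaled CPM of each gene (linear axes from 0) in every library by group, with the group mean as a line. Bmpr1a, Bmpr2 and Smad5 are lowest in the 3 BV- NRF1 OE libraries, while Smad1 and Smad4 stay within 1.24-fold and 1.28-fold over all 9 libraries.

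NRF1 OE was compared with Ctrl within each population, and BV+ with BV- cells within each vector. These comparisons share libraries, so their values are given side by side and are not independent. In bulk RNA of sorted cells, fewer cells of a type and less RNA per cell cannot be told apart.

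In BV+ cells no member was called different between NRF1 OE and Ctrl. At an adjusted p under 0.05 edgeR called 0 of 8 members, against 8.02% of all genes tested, and no member had an unadjusted p under 0.05. By the threshold of the study, which asks for p under 0.05 before adjustment and a log2 fold change beyond 0.58 in either direction, it was also 0 of 8, against 17.0% of all genes. The log2 fold changes ran from -0.30 for Smad9 (SE 0.251, adjusted p = 0.404) to 0.19 for Acvr1 (SE 0.137, adjusted p = 0.335), with a median of -0.091 beside 0.036 over all genes. For Bmpr1a the 95% interval of the log2 fold change was -0.53 to 0.30, for Smad1 -0.25 to 0.33 and for Smad4 -0.36 to 0.17. The libraries of the groups did not overlap for 4 of 8 members, Bmpr1a, Bmpr2 and Smad9 lower and Acvr1 higher with NRF1 OE, against 70.1% of all genes. When offsets took out the dependence of each library on GC content and length, Bmpr1a, Bmpr2 and Smad5 had log2 fold changes above 0 (0.21, 0.27 and 0.18) and Smad1 one below 0 (-0.066), and none of the 8 was called.

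In BV- cells Bmpr1a, Bmpr2 and Smad5 fell with NRF1 OE. Bmpr2 fell by 0.93 on the log2 scale (SE 0.264, adjusted p = 0.0407), Bmpr1a fell by 0.78 (SE 0.172, adjusted p = 0.0317) and Smad5 fell by 0.45 (SE 0.140, adjusted p = 0.0473), that is, to 0.525, 0.582 and 0.730 times the Ctrl level. These were 3 of 8 members called by edgeR's quasi-likelihood test against 17.2% of all genes in either direction and 6.98% called lower. By the threshold of the study Bmpr1a and Bmpr2 passed, 2 of 8 against 16.0% of all genes. Smad9 had a log2 fold change of -0.51 (SE 0.233, adjusted p = 0.129), Bmpr1b of -0.40 (SE 0.385, adjusted p = 0.466) and Smad4 of -0.18 (SE 0.109, adjusted p = 0.234), none of them called. Smad1 had a log2 fold change of 0.037 (95% interval -0.23 to 0.31) and Acvr1 of -0.00020 (95% interval -0.28 to 0.28). The groups did not overlap for 5 of 8 members, Bmpr1a, Bmpr2, Smad5, Smad9 and Smad4, against 57.0% of all genes.

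The 3 genes that fell had long transcripts of low GC content. The transcripts of Bmpr2, Bmpr1a and Smad5 stood at the percentiles 9.13, 10.0 and 22.9 of GC content and 99.2, 87.2 and 90.3 of length among the genes tested. The trend was fitted over the more abundant of the genes tested. At their GC content and length it was -0.75, -0.55 and -0.44 on the log2 scale between BV- NRF1 OE and BV- Ctrl. With offsets for these trends in edgeR the log2 fold changes were -0.24 for Bmpr2 (adjusted p = 0.245), -0.27 for Bmpr1a (adjusted p = 0.0596) and -0.026 for Smad5 (adjusted p = 0.865) in the same test, and no member was called. Smad1 and Smad4, at the percentiles 59.7 and 48.2 of GC content, had fitted trends of 0.12 and 0.020. The part of these trends in the 3 falls was not tested. The sign of the correlation with GC content followed the vector, so a technical trend and an NRF1 OE effect cannot be told apart.

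Single libraries also decided these calls in BV- cells. Without replicate 3 of BV- NRF1 OE the log2 fold changes of Bmpr2, Bmpr1a and Smad5 were -1.17, -0.80 and -0.52, with adjusted p of 0.0595, 0.0595 and 0.0661. Without replicate 1 of BV- Ctrl they were -0.71, -0.73 and -0.37 (adjusted p 0.319, 0.311 and 0.336), and without replicate 2 of BV- Ctrl -1.14, -0.84 and -0.55 (adjusted p 0.117, 0.117 and 0.121). The adjusted p lay between 0.0637 and 0.0842 without a BV+ Ctrl library, while without a BV+ NRF1 OE library Bmpr1a alone was called. Without replicate 2 of BV- NRF1 OE, the lowest library, all 3 were called, with log2 fold changes of -0.67, -0.63 and -0.36 and adjusted p of 0.00999, 0.00770 and 0.0497.

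**Figure D4:**
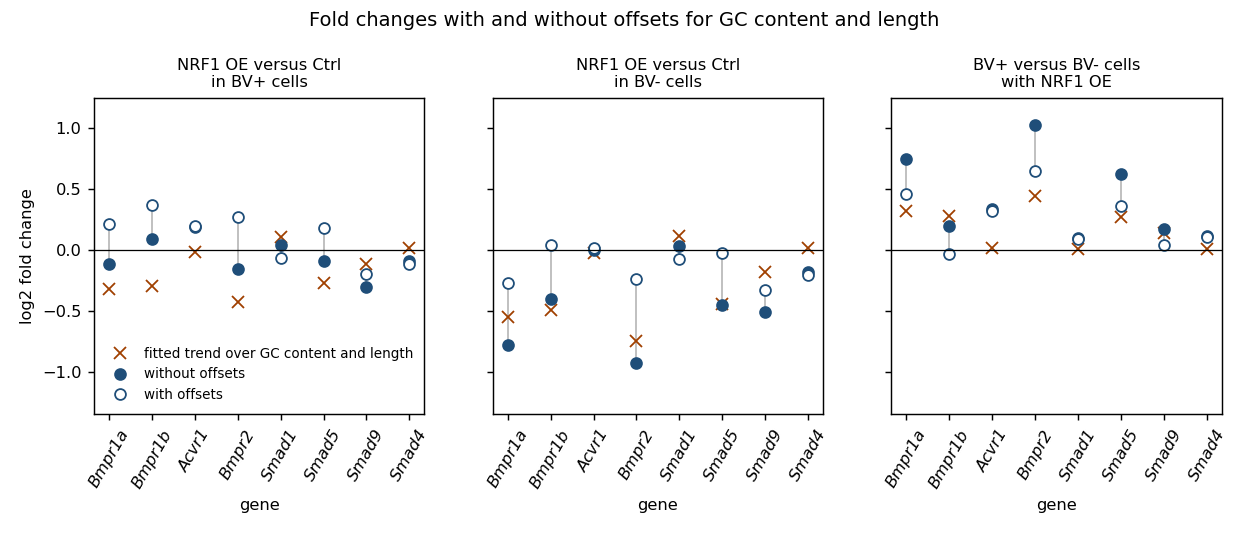
Log2 fold changes of the 8 genes without offsets (filled circles) and with offsets for GC content and length (open circles), and the fitted trend itself (crosses), in 3 comparisons. In BV- cells the crosses of Bmpr1a, Bmpr2 and Smad5 lie at -0.55, -0.75 and -0.44, and in BV+ against BV- cells with NRF1 OE the open circles of these genes lie above 0, at 0.46, 0.65 and 0.36.

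With Ctrl, no member was called different between BV+ and BV- cells. EdgeR's quasi-likelihood test called 0 of 8, against 1.12% of all genes, no member had an unadjusted p under 0.05, and by the threshold of the study the count was 0 of 8 against 5.74% of all genes. The log2 fold changes of BV+ over BV- ran from -0.29 for Bmpr1b (95% interval -1.20 to 0.63) to 0.26 for Smad5 (SE 0.154, 95% interval -0.077 to 0.60, adjusted p = 0.809). The groups did not overlap for 3 of 8 members, Bmpr1a, Acvr1 and Smad5, against 48.0% of all genes, and in these the BV+ libraries were the higher ones.

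With NRF1 OE, Bmpr1a, Bmpr2 and Smad5 were higher in BV+ than in BV- cells. Bmpr2 had a log2 fold change of 1.03 (SE 0.263, adjusted p = 0.0242), Bmpr1a of 0.75 (SE 0.172, adjusted p = 0.0145) and Smad5 of 0.62 (SE 0.140, adjusted p = 0.0122). EdgeR's quasi-likelihood test thus called 3 of 8 members, against 13.8% of all genes in either direction and 9.90% called higher in BV+, and 3 of 8 passed the threshold of the study, against 14.7%. Acvr1 had a log2 fold change of 0.34 (SE 0.125, adjusted p = 0.100), and the other 4 members lay between 0.10 and 0.20. The groups did not overlap for 4 of 8 members, the 3 called and Acvr1, against 39.9% of all genes.

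With the offsets Bmpr2, Bmpr1a and Smad5 were called as well in this comparison, at 0.65 (adjusted p = 0.00259), 0.46 (adjusted p = 0.00104) and 0.36 (adjusted p = 0.00485), against 11.7% of all genes called higher. The calls of Bmpr2 and Bmpr1a rest on both BV+ NRF1 OE libraries, and that of Smad5 on replicate 2. Without replicate 1 of that group the log2 fold changes were 1.10, 0.75 and 0.71, with adjusted p of 0.105, 0.101 and 0.0486. Without replicate 2 they were 0.95, 0.75 and 0.53, with adjusted p of 0.119, 0.0658 and 0.0916. Markers of cell types moved with this comparison too. Without the offsets, 5 of 6 mesenchyme, 2 of 5 mesoderm, 2 of 5 neuroectoderm and 1 of 8 germ cell markers tested were higher in BV+. Called lower were 3 of 8 germ cell, 2 of 7 pluripotency, 1 of 5 endoderm and 1 of 5 neuroectoderm markers. Over all genes 1674 of 16903 were called higher and 651 lower. With the offsets 5 mesenchyme, 3 mesoderm, 2 neuroectoderm and 1 germ cell markers were called higher in BV+ cells. Then 5 germ cell, 4 pluripotency, 1 endoderm and 1 neuroectoderm markers were called lower. Over all genes 1944 of 16662 were then called higher and 1851 lower. The summed FPKM of the mesoderm markers was between 6.43 and 8.61 in BV+ NRF1 OE and between 3.22 and 4.17 in BV- NRF1 OE, and that of the neuroectoderm markers between 39.9 and 42.5 and between 29.0 and 33.2. With Ctrl, without offsets, 3 of 6 mesenchyme, 1 of 5 mesoderm and 1 of 5 neuroectoderm markers were called higher in BV+ cells. Over all genes 186 of 16903 were called higher there. The part of these markers in the result was not tested.

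**Figure D5:**
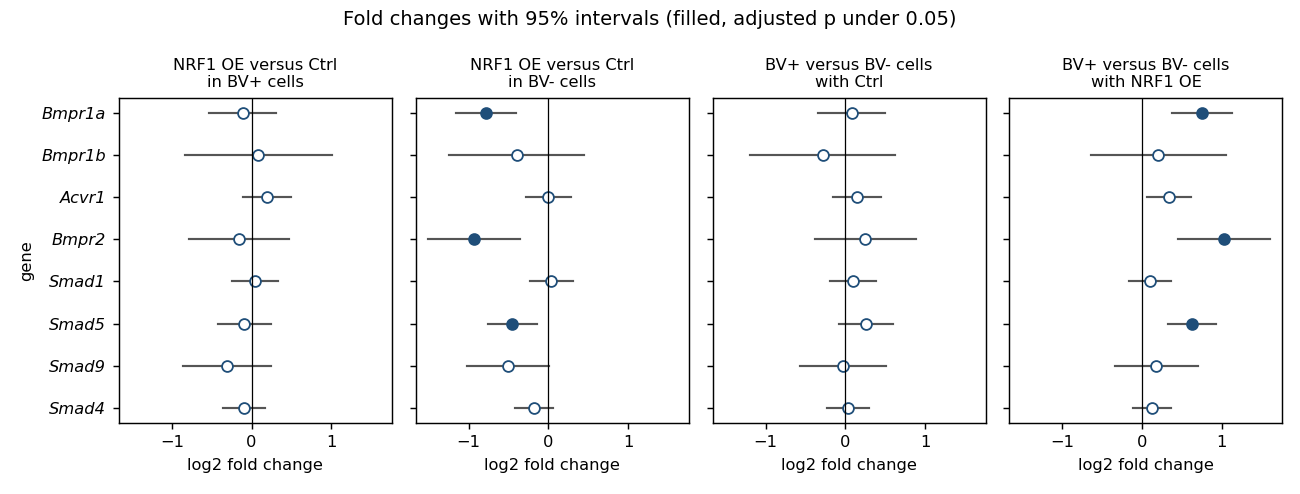
Log2 fold changes of the 8 genes in the 4 comparisons from 1 edgeR fit of 9 libraries, with 95% intervals as lines and filled circles where the adjusted p over all genes was under 0.05. Filled circles appear for Bmpr1a, Bmpr2 and Smad5, on the left of 0 for NRF1 OE in BV- cells and on the right of 0 for BV+ over BV- cells with NRF1 OE.

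Whether the effect of NRF1 OE differed between BV+ and BV- cells was tested as an interaction. No member was called, 0 of 8 against 0% of all genes, and by the threshold of the study Bmpr1a passed, 1 of 8 against 4.48%. The difference in log2 fold change was 0.67 for Bmpr1a (SE 0.257, unadjusted p = 0.0241 and adjusted p = 0.776 from edgeR), 0.77 for Bmpr2 (SE 0.390, adjusted p = 0.935) and 0.37 for Smad5 (SE 0.208, adjusted p = 0.976). For Smad1 it was 0.0029 (95% interval -0.39 to 0.40). Over all genes edgeR called 0, with 932 at an unadjusted p under 0.05, while DESeq2 called 23 genes and none of the 8 members. The falls in BV- cells are thus not shown to differ from the values in BV+ cells.

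Other genes of the pathway were taken from lists by role, with adjusted p from the same edgeR fit. The shares of all genes called in either direction, without offsets, were 8.02% for NRF1 OE in BV+ cells and 17.2% in BV- cells. Called higher and lower were 1054 and 301 of 16903 genes in BV+ and 1731 and 1179 in BV- cells. With the offsets 2002 of 16662 genes were called in BV+ cells (1062 higher) and 831 in BV- cells (502 higher). Of the 7 other type I and type II receptors tested, 1 was called higher and 0 lower with NRF1 OE in BV+ cells, namely Acvrl1, a type I receptor of endothelium, at 8.86 and 3.81 CPM against 1.70 and 1.73 CPM (log2 fold change 1.88, adjusted p = 0.0387). In BV- cells 0 were called higher and 1 lower, Tgfbr1, the TGF-β type I receptor (log2 fold change -0.70, adjusted p = 0.0421), which was at -0.19 (adjusted p = 0.233) with the offsets. Of 6 co-receptors, a decoy receptor included, Bambi (1.05) and Eng (0.59) were called higher in BV+ cells and none was called in BV- cells. With the offsets Bambi was called in BV+ cells (1.31) and Eng was not (0.26, adjusted p = 0.188).

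Among the other SMADs, Smad6, an inhibitor of BMP signalling, was called higher in both populations. Smad6 was at 19.6 and 13.4 CPM in BV+ NRF1 OE against 7.86 and 10.2 CPM in BV+ Ctrl (log2 fold change 0.87, adjusted p = 0.0367), and at 8.31, 10.5 and 10.0 CPM in BV- NRF1 OE against 5.99 and 6.09 CPM in BV- Ctrl (0.66, adjusted p = 0.0491). With the offsets neither was called (0.45 and 0.24). Smad7, the other inhibitory SMAD, was at -0.29 (adjusted p = 0.103) in BV+ cells and -0.10 (adjusted p = 0.482) in BV- cells, and with the offsets it was called lower in both (-0.58, adjusted p = 0.00703, and -0.39, adjusted p = 0.0378). Smad3, a transducer of TGF-β and activin, was called higher in BV+ cells (0.58, adjusted p = 0.0244) and was at 0.19 in BV- cells (adjusted p = 0.227). Smad2, of the same branch, was at -0.35 (adjusted p = 0.230) in BV+ and -0.49 (adjusted p = 0.0702) in BV- cells. With the offsets in edgeR Smad2 was at -0.073 (adjusted p = 0.608) in BV+ and -0.040 (adjusted p = 0.797) in BV- cells. Smad3 was then still called in BV+ cells (0.44, adjusted p = 0.0164) and not in BV- cells (0.068, adjusted p = 0.678).

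Of 15 regulators of SMADs, 1 was called higher in BV+ cells with NRF1 OE, the phosphatase Ctdsp2 (0.53). In BV- cells 2 were called higher and 3 lower, and the 4 with the largest absolute values were Trim33 at -0.81, Skil at -0.78, Ctdsp1 at 0.63 and Stub1 at 0.52, of which none was called with the offsets. With the offsets 1 of the 15 was called in BV- cells, Nedd4l (0.47, adjusted p = 0.0480), a ubiquitin ligase that was not called without them (0.075). Over all genes 831 of 16662 were then called in BV- cells. Of 8 BMP target genes, Id3 (1.70, adjusted p = 0.0134) and Id1 (0.70, adjusted p = 0.0481) were called higher with NRF1 OE in BV+ cells and none was called in BV- cells. Id3 was at 132 and 71.2 CPM in BV+ NRF1 OE against 28.9 and 33.4 CPM in BV+ Ctrl. Its libraries did not overlap, as was so for 70.1% of all genes. With the offsets Id3 was called in BV+ cells (1.29), Id1 was not (0.33, adjusted p = 0.163), and in BV- cells Id1 was called lower (-0.89, adjusted p = 0.0329). Of 7 ligands Bmp2 (1.72) and of 6 extracellular antagonists Nog (1.91) were called higher in BV+ cells, and none of either list was called in BV- cells. With the offsets Bmp2 and Nog were called in BV+ cells as well, and so was the antagonist Fst (0.59, adjusted p = 0.0426). Without the offsets no gene of these lists was called between BV+ and BV- cells with Ctrl, where edgeR called 190 of all genes. With the offsets Id3 (1.10, adjusted p = 0.0214) and Fst (0.89, adjusted p = 0.0298) were called higher in BV+ cells with Ctrl, against 288 of 16662 genes.

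These calls on the lists depend on single libraries. In BV+ cells edgeR called 0 of all genes, and so none of the lists, without replicate 1 of BV+ NRF1 OE or without either BV+ Ctrl library. The genes at an unadjusted p under 0.05 then numbered between 2253 and 3587. Without replicate 1 of BV+ NRF1 OE, Id3 was at 1.19 on the log2 scale (adjusted p = 0.170), Acvrl1 at 1.15 (adjusted p = 0.382) and Smad6 at 0.57 (adjusted p = 0.334). In BV- cells 0 genes of all were called without replicate 1 of BV- Ctrl or without either BV+ Ctrl library (2821 to 5924 at an unadjusted p under 0.05), 1 without replicate 2 of BV- Ctrl and 35 without replicate 3 of BV- NRF1 OE. In BV+ cells 5 of 6 mesenchyme markers, and in BV- cells 2 of 6, were also called higher with NRF1 OE. Over all genes 1054 and 1731 of 16903 were called higher. With the offsets the counts were 5 in BV+ and 0 in BV- cells, against 1062 and 502 of 16662 genes called higher. The part of these markers in the calls on the lists was not tested.

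Between BV+ and BV- cells with NRF1 OE, 3 of 7 other receptors, 3 of 6 co-receptors and decoy, 2 of 4 other SMADs, 2 of 15 regulators, 3 of 7 ligands, 3 of 6 antagonists and 5 of 8 target genes were called higher in BV+, against 9.90% of all genes called higher, and 1 ligand, Gdf3 (-0.55), lower. With the offsets, against 11.7% of all genes, the counts called higher were 2 other receptors, 1 co-receptor, 2 other SMADs, 3 regulators, 3 ligands, 3 antagonists and 5 target genes. Examples of the log2 fold changes without offsets were Acvrl1 at 3.29, Bmp2 at 4.21, Nog at 3.53, Msx1 at 3.16 and Id3 at 2.42, beside 1.03 for Bmpr2, the largest among the 8 members. In BV- NRF1 OE, Bmp2 had 1 to 4 reads per library and Nog 4 to 7. Msx1 had 3 to 5 reads there and Acvrl1 9 to 12, against 159 to 461 for Bmpr2. The sizes of these 4 values thus rest on few reads. The lists were described by these counts, and nothing was tested across a list.

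The genes whose pattern over the 9 libraries was most like that of a member were found by the root mean square difference of log2 CPM, centred on each gene's mean, among 10981 genes. For Bmpr1a these were Gnai3 (0.0619) and Camsap2 (0.0701), for Bmpr2 Ro60 (0.105) and Brwd3 (0.120), and for Smad5 Ppfibp1 (0.0472) and Plekhh2 (0.0473). For Acvr1 they were Clic4 and Rassf3, for Smad1 Ubap1 and Brd3, for Smad4 Specc1l and Fbxo38, for Smad9 AU020206 and Brox, and for Bmpr1b Sowahc and Cd55. Between members, the smallest difference was that of Smad1 and Smad4 (0.106). These were also the members that varied least, with a root mean square of their own of 0.0943 and 0.117. The measure is small for any genes that vary little, so it does not show a shared pattern for this pair. Bmpr1a, at 0.436 of its own, was closer to Smad5 (0.161) than to Bmpr2 (0.251) or Acvr1 (0.409). These measures are descriptions over 9 libraries that share the trends over GC content.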

How the data were processed

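The authors' methods describe trimming with Cutadapt and mapping, and the submitters' processing notes name HISAT2 2.0.1, HTSeq 0.6.1 and GRCm39. The deposited tables, 1 per library, give a raw count per gene, not normalized, and the authors also deposited FPKM calculated from these counts. Whether counting used strand was not given in the sources used here. Bmpr1a shares 290 exon bases with antisense Gm17110, which held 7 counts over 9 libraries.

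Counts were tested with edgeR 4.0.16 in R 4.3.3 (TMM, filterByExpr, quasi-likelihood F test, two-sided, 1 fit of 9 libraries and 4 groups), with Benjamini-Hochberg adjustment over 16903 genes and a threshold of 0.05. TMM factors lay between 0.969 and 1.03. Replicates differed by more than sampling noise. FPKM were used for levels. GC content and transcript length came from a GRCm38 annotation, matched by identifier for 16662 genes (98.6%), and offsets were smooth trends fitted with mgcv 1.9.3. RefSeq promoter windows are on GRCm38.p6, another build than the files. The procedures were tested on simulated data.

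Named genes were all members, Smad2, Smad3, Smad6 and Smad7, up to 4 called genes per pathway list by absolute log2 fold change, and the 2 genes most like each member with a mean of at least 5 CPM. Nrf1, Prdm1 and the marker lists served as checks. The members and lists were chosen with earlier results of these data known. Alternatives were DESeq2 1.42.0, its size factors, library size alone, no filter, fits of the compared groups, the replicate number as a term, the offsets, each library left out, and scaled counts per kilobase for levels.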

Additional observations from a re-analysis of the deposited data

How the results depend on the processing

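The counts of members called were 0 of 8 in BV+ cells, 0 between populations with Ctrl and 0 for the interaction under every alternative run. In BV- cells the 3 calls stayed with DESeq2, its size factors, library size alone and no filter, and the count was 0 with the offsets and 0 with the fit of the compared groups alone, and between 0 and 3 with 1 library left out. For BV+ against BV- cells with NRF1 OE the count of 3 was 1 in the fit of the compared groups and between 0 and 3 with 1 library left out, and otherwise at least 2. The order of levels was the same at all 8 ranks with scaled counts per kilobase. These use gene lengths taken back from the deposited FPKM. Within a library they are thus the FPKM times 1 factor, apart from rounding. The order is kept by construction, so this alternative is no test of it.

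With the replicate block the count in BV- cells was 0 (Bmpr2 -1.18, Bmpr1a -0.82, Smad5 -0.52, adjusted p between 0.107 and 0.113), and it was 2 for BV+ against BV- cells with NRF1 OE, where Bmpr1a had an adjusted p of 0.0542. With the replicate block Acvr1 in BV- cells was 0.033 and Smad1 was -0.021. Over all genes the block left 3 called genes in BV+ cells and 0 in BV- cells. Same-numbered libraries correlated between -0.612 and 0.595 in their deviations from the group means. Between BV- NRF1 OE and BV- Ctrl the correlations were 0.561 and 0.595. In a group of 2 libraries the deviations are mirror images, so these values cannot tell whether the numbers mark a pairing.

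The other changes of sign concerned log2 fold changes that were not called in either setting. With the offsets they were, in BV+ cells, Bmpr1a 0.21, Bmpr2 0.27, Smad5 0.18 and Smad1 -0.066, in BV- cells Bmpr1b 0.044, Acvr1 0.019 and Smad1 -0.077, and between populations Bmpr1a -0.016 with Ctrl and Bmpr1b -0.036 with NRF1 OE. Smad1 was -0.0035 in BV+ cells in the fit of the compared groups, -0.0015 in BV- cells with library size alone and -0.017 for the interaction without a filter. With 1 library left out, in BV+ cells Bmpr1b ranged from -0.15 to 0.30, Smad1 from -0.038 to 0.12, Smad5 from -0.18 to 0.00049 and Smad4 from -0.20 to 0.0087. In BV- cells Acvr1 ranged from -0.10 to 0.094 and Smad1 from -0.025 to 0.076. Between populations Bmpr1b ranged from -0.60 to 0.051 and Smad9 from -0.26 to 0.20 with Ctrl, and Bmpr1b from -0.037 to 0.68 with NRF1 OE. For the interaction Smad1 ranged from -0.076 to 0.083, Smad9 from -0.022 to 0.47 and Smad4 from -0.017 to 0.19. The cause of these changes was not tested. Over all genes the 2910 calls in BV- cells were 831 with the offsets and 0 in the fit of the compared groups, and 1731 of them were higher with NRF1 OE, against 1418 of 3141 with library size alone. In BV+ cells the 1355 calls were 2002 with the offsets and 4371 in the fit of the compared groups. Bmpr1b and Smad9, with 13 to 66 reads per library, are limited by depth, and groups of 2 or 3 libraries limit every comparison.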
